A study of Homo sapiens with 6 samples.

Results

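Receptor tyrosine kinases (RTKs) and the growth factors that bind them were examined in the human bladder cancer cell line J82 after CRISPR/Cas9 targeting of FOXC1. The set was a list of 59 genes taken by receptor family and not by a threshold on their measured values: 23 receptors with a kinase domain, 2 receptor-like proteins that lack one, 30 secreted or membrane-bound ligands, 3 intracellular FGF-like proteins and 1 FGF carrier protein. All 59 had a row among the 57820 genes of the count table. Polyadenylated RNA had been sequenced in 3 control libraries and 3 libraries labelled FOXC1 KO. The KO cells had received a lentiCRISPR v2 construct with a guide RNA against FOXC1, which encodes a forkhead transcription factor, and the controls a vector. Selection was in puromycin and knockout clones were checked by Western blot, per the methods. Whether the 3 libraries of a group came from separate cultures, or the KO libraries from a single clone, is not stated, so the p-values below measure the spread between these libraries, which may be technical.

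An RTK spans the plasma membrane, binds its ligand outside the cell, pairs with another receptor and phosphorylates tyrosines inside it, which recruits adapters of the RAS-MAPK and PI3K-AKT pathways. Many tumour cells make both a receptor and its ligand, so that the pair can act within the same cell population. In urothelial cancer the ERBB and FGF receptor families are known for amplification, mutation or fusion. The question here was which receptors and ligands J82 cells transcribe, and which differ between control libraries and libraries labelled FOXC1 KO.

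The libraries held 18408134 to 25350908 counts, of which the smallest was KO replicate 1. The targeted transcript, FOXC1, was at 18.2 ± 1.21 CPM in control and 22.5 ± 1.495 CPM in KO libraries (SD, n = 3), so it was no lower where KO was the label (log2 fold change 0.30, SE 0.091, edgeR adjusted p 0.0127; CPM, counts scaled to a common library total). The transcript level therefore does not check the labels, and each direction below is between libraries by their label. J82 libraries carried keratin transcripts, but 9 of 16 urothelial markers lay under a mean of 1 CPM, among them CDH1, KRT5, KRT20 and the uroplakins, while all 7 mesenchymal markers were expressed. The summed urothelial markers were 3178 to 4000 CPM in control and 2488 to 2765 CPM in KO libraries, and 6 of the 7 tested members were called lower. Calls follow the rule given in the next paragraph, by which 8.39% of all tested genes were lower and 7.57% higher. Mesenchymal markers summed to 1813 to 1948 and 1869 to 2140 CPM, with ZEB1 and SNAI2 called higher. Fibroblast markers summed to 514 to 597 CPM in control and 305 to 308 CPM in KO libraries, with 3 of 6 called lower and COL1A1 called higher. Endothelial markers, which matter for VEGF and TIE receptors, summed to at most 2.72 CPM in any library, with ERG at 0 counts in all 6. Of these ESAM was called lower, at a mean of 1.80 CPM in control and 0.742 CPM in KO libraries, and CDH5 higher, at 0.0131 and 0.932 CPM. CDH5 had enough counts for a test through the KO libraries alone, which itself favoured a difference. Immune markers summed to 3.85 to 4.37 CPM in control and 5.55 to 6.63 CPM in KO libraries, with CD14 called higher, at 3.52 and 5.38 CPM. The part of these marker shifts in the results below was not tested. All libraries came from a cultured cell line, so the lists name marker genes and do not count fibroblasts, endothelial or immune cells. In bulk RNA, fewer cells of a J82 subpopulation and less RNA per cell cannot be told apart.

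Of the 59 genes, 45 had enough counts for a test and 14 did not. Calls required a fold change over 1.3 and, in edgeR's quasi-likelihood test over all 15647 tested genes, a Benjamini-Hochberg adjusted p under 0.05. By this rule 14 of the 45 tested genes were higher and 8 lower in libraries labelled FOXC1 KO (22 called, 48.9%). Of all tested genes 16.0% were called (7.57% higher and 8.39% lower). A further 6 passed the adjusted p but not the fold change, as did 2108 of all 15647 tested genes. With or without the fold change, 29.4% of all tested genes passed the adjusted p. Of the 45 tested genes 41 passed the filter through both groups, and these held 20 of the 22 calls. KIT passed the filter through the control libraries alone and PGF through the KO libraries alone, so for these genes the filter itself favoured a difference. The share was not tested, because the list was chosen with earlier results of these data known. The median log2 fold change of the 45 was 0.07, against -0.00084 over all tested genes. The 3 KO values all lay on one side of the 3 control values for 25 of the 45, and for 41.3% of all tested genes.

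The calls lay mostly with ligands. Of 30 ligands 23 were tested and 7 were not, with 9 called higher and 5 lower (60.9% of those tested). Over all tested genes 16.0% were called. Of 23 receptors 2 were called higher, TYRO3 and DDR2, and 2 lower, FLT1 and KIT, with 7 not tested. The remaining calls were the FGF carrier FGFBP1 and the intracellular FGF12 and FGF13, all higher, and the receptor-like PDGFRL, lower.

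**Figure D1:**
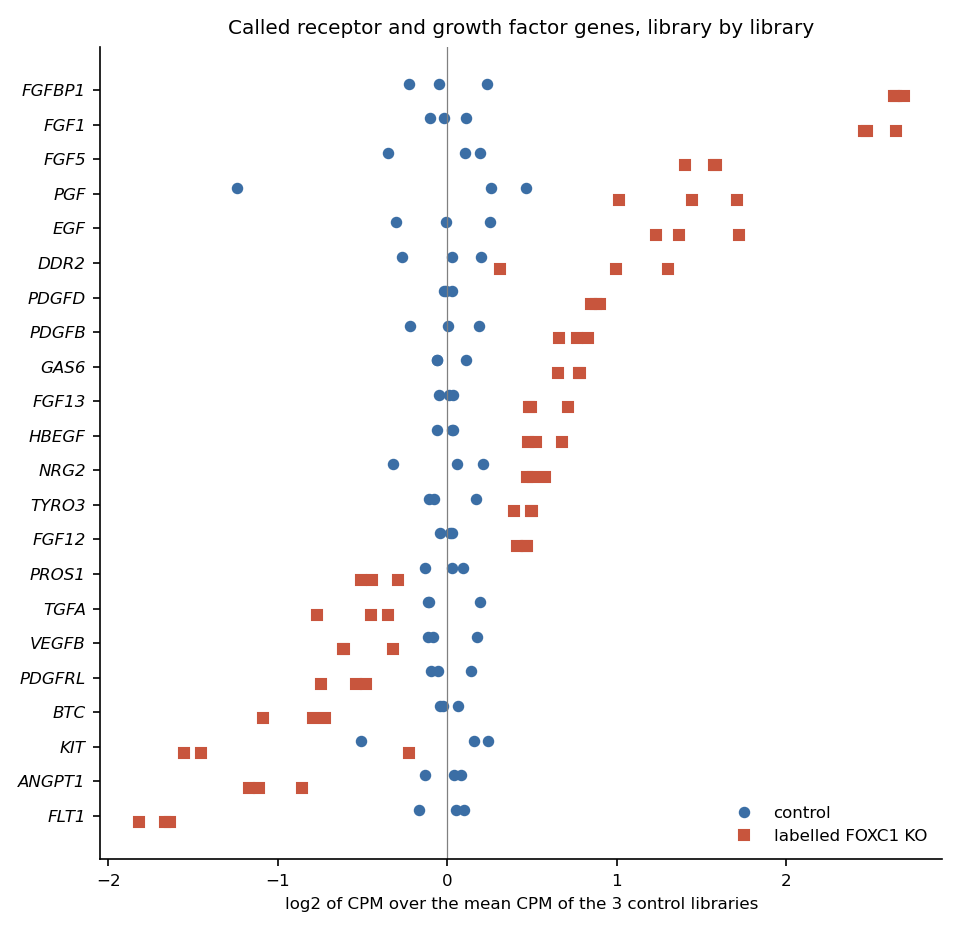
Each row is 1 of the 22 called genes and each symbol 1 library, placed on the x axis at the log2 of its CPM over the mean of the 3 control libraries (circles, control; squares, libraries labelled FOXC1 KO). The groups do not overlap for any gene shown except KIT, where KO replicate 1 lies among the controls.

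To see which of these receptors J82 cells transcribe most, levels were compared per length, as CPM per kilobase of annotated exon. AXL was the highest of the 59, at 126 CPM per kilobase in control and 115 in KO libraries, and stood at percentile 98.1 of all tested genes. VEGFC followed (55.1 and 55.1), then MET (47.5 and 39.6), VEGFB (39.7 and 27.9) and GAS6 (18.8 and 31.4). Among the other receptors FGFR1 (10.1 and 11.8) and EGFR (9.08 and 9.44) led. The receptors FGFR2, FGFR4, PDGFRA, FLT4 and TEK had at most 5 counts each summed over all 6 libraries. NRG3 had 0 counts in every library, which allows up to 3 counts in a library by counting error alone.

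**Figure D2:**
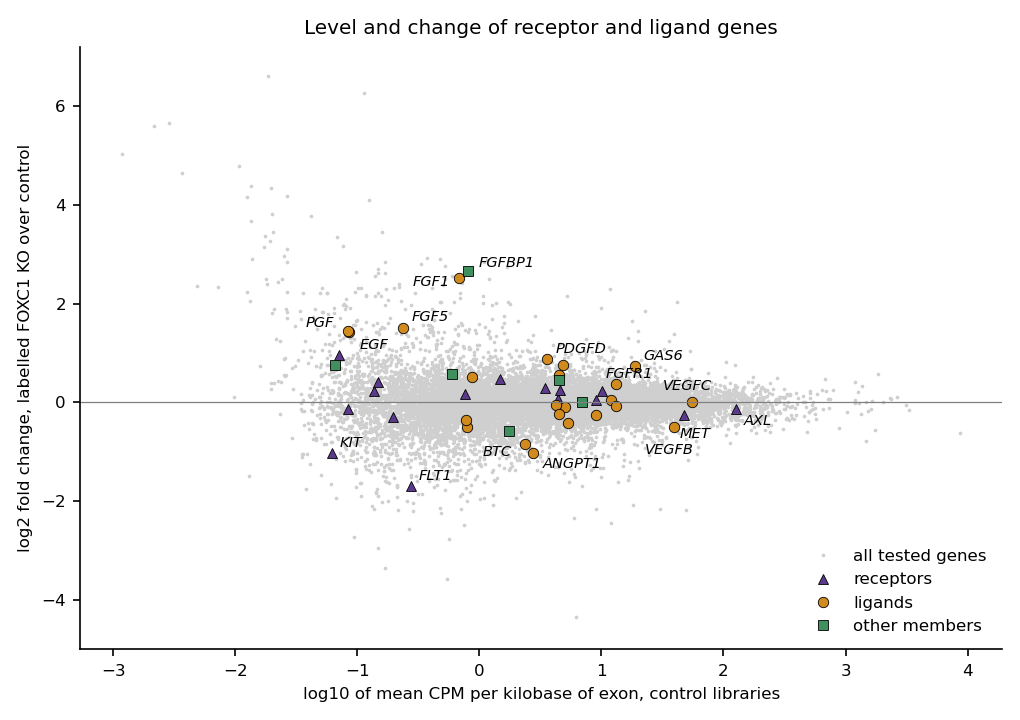
The x axis is the log10 of the mean control CPM per kilobase of exon and the y axis the log2 fold change of libraries labelled FOXC1 KO over control, for all tested genes with counts in control (grey) and the tested receptors (triangles), ligands (circles) and other members (squares). AXL, VEGFC and MET lie far to the right and near 0, while FGF1 and FGFBP1 lie highest at 2.52 and 2.66 and FLT1 lowest at -1.70.

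The FGF family held the 2 largest differences of the set, and each of its 5 calls was higher in libraries labelled FOXC1 KO. FGF1, an acidic fibroblast growth factor that can bind every signalling FGF receptor, lies on chromosome 5 at 141971743 to 142077635 (minus strand, GRCh37). Its level was 3.34, 3.15 and 3.65 CPM in control libraries 1 to 3 and 21.2, 18.8 and 18.6 CPM in KO libraries 1 to 3. Every KO library thus lay far above every control library. The rise was 5.75-fold, a log2 fold change of 2.52 (SE 0.12, edgeR adjusted p 2.91e-16), and lay between 2.46 and 2.59 under 12 alternatives. An antisense gene at the locus, SPRY4-AS1, had a mean of 34.7 counts in control and 33.3 counts in KO libraries. FGF1 had 75 to 93 counts per control library and 390 to 475 per KO library.

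FGFBP1 encodes a secreted protein that releases FGF1 and FGF2 from the extracellular matrix. It lies on chromosome 4 at 15937200 to 15940363 (minus strand, GRCh37). Its level was 1.29, 1.06 and 0.943 CPM in control and 7.12, 6.90 and 6.84 CPM in KO libraries, again without overlap. The rise was 6.32-fold (log2 fold change 2.66, SE 0.17, edgeR adjusted p 2.39e-13). FGF5, a ligand known for its role in hair follicle cycling, was at 1.51, 1.11 and 1.61 CPM in control and at 4.24, 3.73 and 4.21 CPM in KO libraries. It rose 2.86-fold (log2 fold change 1.51, SE 0.18, edgeR adjusted p 1.21e-07).

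The FGF ligand with the highest level, FGF2, did not differ detectably (81.8 ± 5.19 CPM in control and 84.6 ± 13.1 CPM in KO libraries, SD, n = 3), a difference of 0.05 on the log2 scale (SE 0.087). The sign of this value changed without control replicate 1 or KO replicate 3. Per exon length, FGF1 made up 5.26% ± 0.501 (SD, n = 3) of the summed FGF1, FGF2, FGF5 and FGF9 transcripts in control libraries and 23.2% ± 2.98 (SD, n = 3) in KO libraries. The share of FGF2 was 92.9% ± 0.928 and 72.8% ± 3.22 in the same libraries. FGF7 and FGF9 had at most 7 counts in all.

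FGFR1, the only signalling FGF receptor at more than 1 CPM in both groups, was at 186, 161 and 171 CPM in control and 212, 212 and 185 CPM in KO libraries. The groups overlapped. Its log2 fold change of 0.23 (SE 0.074, edgeR adjusted p 0.0182) did not pass the fold change threshold, and the adjusted p rose to as much as 0.121 when single libraries were left out. FGFR3, the receptor most often altered in urothelial tumours, had 0.716 ± 0.132 CPM in control and 0.960 ± 0.206 CPM in KO libraries (SD, n = 3), and was not called (log2 fold change 0.41, SE 0.28, edgeR adjusted p 0.305). FGFRL1, a receptor-like protein without a kinase, was at 30.03 ± 3.65 and 30.2 ± 0.566 CPM (SD, n = 3), and its log2 fold change of 0.01 changed sign in 4 alternatives.

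FGF12 and FGF13 are relatives of the FGFs that stay inside the cell and bind voltage-gated sodium channels. FGF12 was at 49.7, 52.2 and 51.7 CPM in control and at 71.1, 68.2 and 70.7 CPM in KO libraries, a rise of 1.37-fold (log2 fold change 0.45, SE 0.073, edgeR adjusted p 2.07e-05). FGF13 rose 1.48-fold, from 12.4 ± 0.363 to 18.4 ± 1.71 CPM (SD, n = 3), a difference of 0.57 on the log2 scale (SE 0.097, edgeR adjusted p 4.29e-05). FGF11, the third such gene, was tested at 0.337 ± 0.144 and 0.572 ± 0.275 CPM (SD, n = 3) and was not called (edgeR adjusted p 0.181).

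The promoter sequences of the 2 largest rises and of the 2 called genes with the longer forkhead word, GTAAACA or its reverse complement TGTTTAC, are shown, since the targeted factor is a forkhead protein. Forkhead factors are known to bind words such as GTAAACA. Sequences are from RefSeq on GRCh38.p14, 300 bases around an annotated start site, read 5′ to 3′ on the strand of the gene, with any TAAACA or its reverse complement TGTTTA in capitals. For FGF1 the only one of its 4 listed starts whose window holds the word is given (chr5:142686041-142686340). The windows of FGFBP1 (chr4:15938691-15938990), BTC (chr4:74794474-74794773) and PROS1 (chr3:93973847-93974146) follow, all on the minus strand. BTC and PROS1 were lower in libraries labelled FOXC1 KO and are described with their families.
FGF1: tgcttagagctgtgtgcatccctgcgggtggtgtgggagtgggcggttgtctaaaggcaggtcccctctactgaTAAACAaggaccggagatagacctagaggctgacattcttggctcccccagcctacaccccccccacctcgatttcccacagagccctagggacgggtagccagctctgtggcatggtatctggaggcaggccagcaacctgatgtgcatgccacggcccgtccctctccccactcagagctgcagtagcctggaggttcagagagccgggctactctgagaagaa
FGFBP1: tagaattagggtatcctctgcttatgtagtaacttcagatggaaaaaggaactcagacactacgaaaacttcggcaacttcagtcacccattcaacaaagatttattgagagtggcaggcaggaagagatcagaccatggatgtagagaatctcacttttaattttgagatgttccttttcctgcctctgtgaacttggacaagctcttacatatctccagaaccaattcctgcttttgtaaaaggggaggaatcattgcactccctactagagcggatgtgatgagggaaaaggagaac
BTC: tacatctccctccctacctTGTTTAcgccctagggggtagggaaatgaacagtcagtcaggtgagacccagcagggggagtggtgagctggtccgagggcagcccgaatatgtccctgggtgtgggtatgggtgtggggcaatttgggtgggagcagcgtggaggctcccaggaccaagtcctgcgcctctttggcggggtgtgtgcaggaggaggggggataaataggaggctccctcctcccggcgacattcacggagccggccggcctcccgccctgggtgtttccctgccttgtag
PROS1: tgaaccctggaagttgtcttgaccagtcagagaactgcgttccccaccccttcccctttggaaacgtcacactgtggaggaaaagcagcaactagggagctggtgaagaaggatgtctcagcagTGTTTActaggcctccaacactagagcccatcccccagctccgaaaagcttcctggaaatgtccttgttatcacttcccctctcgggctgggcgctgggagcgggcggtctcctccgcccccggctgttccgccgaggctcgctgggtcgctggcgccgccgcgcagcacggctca

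The word starts at base -176 from the FGF1 start site, at -231 from that of BTC and at -126 from that of PROS1, and is not in the FGFBP1 window. In BTC and PROS1 it is part of the longer TGTTTAC, the reverse complement of GTAAACA. Both strands of 88 promoter windows, from the 49 genes of the set with an entry, were searched. The longer word was in 5 of them (5.68%) and in 3.42% of all 35116 windows of the same length. These windows belonged to BTC and PROS1, called lower, AXL and BDNF, not called, and TEK, not tested. The shorter word, which the longer contains, was in 11 (12.5%) and in 12.3% of all windows. Of called genes it was in a window of BTC, FGF1, PROS1, FGF5 (at -211) and NRG2 (at -203), of which BTC and PROS1 were lower and the others higher. The shorter word was also in a window of AXL, BDNF and DDR1, not called, and of FGFR2, HGF and TEK, not tested. These are letter matches and no binding was measured here.

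The ERBB family combines receptors with ligands that are made as membrane proteins and shed by proteases. Its receptors were not called, while its ligands moved in both directions. EGFR was at 149, 141 and 144 CPM in control and at 163, 146 and 142 CPM in KO libraries, which overlap (log2 fold change 0.06, SE 0.071, edgeR adjusted p 0.600). ERBB2, the co-receptor that binds no ligand of its own, was at 45.6 ± 5.95 and 47.9 ± 4.17 CPM (SD, n = 3), and ERBB3, whose own kinase is weak, at 1.61 ± 0.177 and 1.87 ± 0.305 CPM. ERBB4 had 3 to 16 counts per library and was not tested. The sign for EGFR changed without KO replicate 1.

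Of the EGFR ligands, EGF and HBEGF were higher and BTC and TGFA lower in libraries labelled FOXC1 KO. EGF, the founding ligand of the family, was at 0.535, 0.655 and 0.786 CPM in control and 2.17, 1.55 and 1.70 CPM in KO libraries. It rose 2.67-fold (log2 fold change 1.42, SE 0.25, edgeR adjusted p 7.12e-05), from 12 to 20 counts per control library to 39 or 40 per KO library. HBEGF, a heparin-binding ligand of EGFR and ERBB4, was at 13.8, 12.9 and 13.8 CPM in control and 21.6, 19.4 and 18.8 CPM in KO libraries. Its rise was 1.47-fold (log2 fold change 0.56, SE 0.094, edgeR adjusted p 3.60e-05).

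BTC encodes betacellulin, which also binds EGFR and ERBB4. Its level was 6.06, 6.51 and 6.13 CPM in control and 2.93, 3.61 and 3.78 CPM in KO libraries, without overlap. The fall was 1.79-fold (log2 fold change -0.84, SE 0.14, edgeR adjusted p 1.88e-05). The promoter window of BTC, printed above, holds TGTTTAC. Windows of AXL and BDNF, not called, also hold this word or its reverse complement. TGFA was at 4.46, 3.60 and 3.62 CPM in control and 2.28, 2.85 and 3.06 CPM in KO libraries, a 1.41-fold fall (log2 fold change -0.49, SE 0.16, edgeR adjusted p 0.0207). This call did not hold with DESeq2 (adjusted p 0.108), without control replicate 1 (edgeR adjusted p 0.0766) or without KO replicate 1 (edgeR adjusted p 0.0937).

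EREG, the EGFR ligand with the highest level per length in control libraries, did not differ detectably (28.9 ± 3.61 and 27.2 ± 3.70 CPM, SD, n = 3; log2 fold change -0.09, SE 0.0999). AREG had at most 1 count in a library. It has a near-identical copy in this genome build, so this count is uncertain. Per exon length, HBEGF made up 35.3% ± 2.14 (SD, n = 3) of EGFR ligand transcripts in control and 49.4% ± 4.04 in KO libraries, BTC 18.4% ± 0.878 and 9.61% ± 1.35, and EREG 39.4% ± 3.43 and 35.1% ± 3.4. HBEGF had the largest share in KO libraries and EREG in control libraries by their means. The order of these 2 in control libraries was not tested.

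NRG1 and NRG2 bind ERBB3, and all neuregulins of the set bind ERBB4. NRG1 was the most abundant of them at 91.0 ± 2.07 CPM in control and 88.3 ± 2.97 CPM in KO libraries (SD, n = 3), and was not called (log2 fold change -0.04, SE 0.070). NRG2 was at 4.14, 3.19 and 4.60 CPM in control and 5.65, 5.95 and 5.52 CPM in KO libraries, a rise of 1.43-fold (log2 fold change 0.52, SE 0.14, edgeR adjusted p 0.00567). Without control replicate 2, the lowest of the 6 libraries for this gene, the adjusted p was 0.0653 in edgeR. NRG4 was not called (log2 fold change -0.36, SE 0.17, edgeR adjusted p 0.106), though it passed without control replicate 1 (0.0169) or KO replicate 3 (0.0464).

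**Figure D3:**
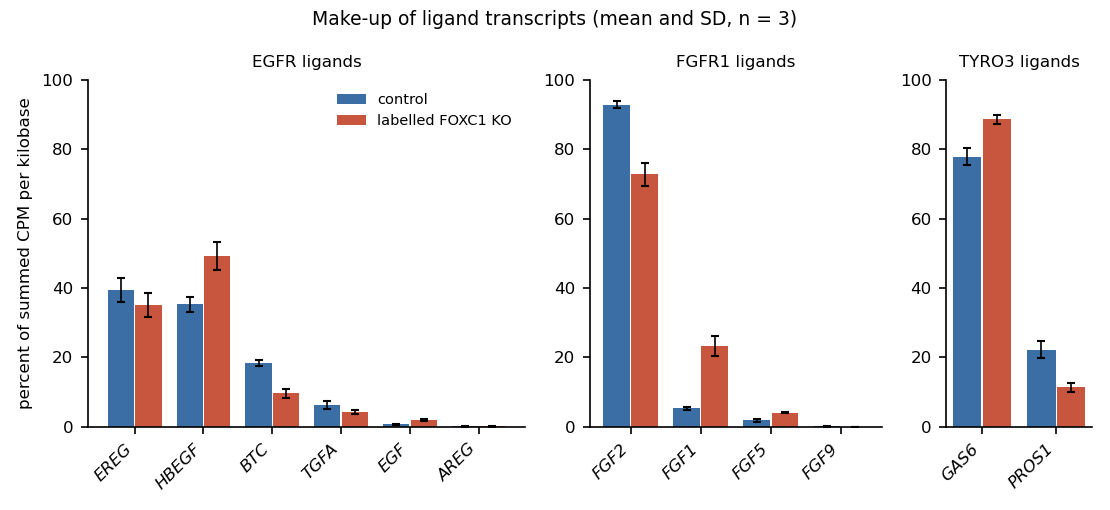
Bars give each ligand's percent of the summed CPM per kilobase of exon over the listed ligands of EGFR, FGFR1 and TYRO3, as the mean of 3 control (blue) and 3 KO-labelled (red) libraries with SD. FGF1 goes from 5.26% to 23.2%, BTC from 18.4% to 9.61% and PROS1 from 22.2% to 11.3%.

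Some of these genes are neighbours. The starts of NRG2 and HBEGF lie 486064 bases apart on chromosome 5 (GRCh37). FGF1 lies beyond them on the same arm, and all of these were higher in libraries labelled FOXC1 KO. From NRG2 to FGF1 there were 51 tested genes, of which 9 were called higher (17.6%), these included, and 3 lower. The stretch was bounded by NRG2 and FGF1, which were already called higher, so this choice itself raised the share. Over all tested genes 7.57% were called higher and 8.39% lower. A change shared by the stretch was not tested. On chromosome 4, EREG and BTC start 439107 bases apart in a cluster with AREG, and of these BTC was called. PDGFRA, KIT and KDR form another cluster on chromosome 4, and each was at or below 0.825 CPM in every library.

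PDGF ligands are dimers that bind PDGFRA and PDGFRB. PDGFB and PDGFD, the ligands of PDGFRB, were both higher in libraries labelled FOXC1 KO. PDGFD was at 15.2, 15.6 and 15.1 CPM in control and 28.1, 27.6 and 28.6 CPM in KO libraries, with little spread within either group. It rose 1.83-fold (log2 fold change 0.88, SE 0.087, edgeR adjusted p 4.49e-09). PDGFB was at 22.0, 16.6 and 19.4 CPM in control and 34.3, 32.9 and 30.5 CPM in KO libraries, a 1.69-fold rise (log2 fold change 0.75, SE 0.095, edgeR adjusted p 3.99e-07).

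Their receptor PDGFRB was at 37.9, 28.7 and 31.9 CPM in control and 39.9, 42.4 and 35.1 CPM in KO libraries, which overlap. It passed the adjusted p but not the fold change (log2 fold change 0.26, SE 0.094, edgeR adjusted p 0.0401), and it missed the adjusted p in 6 of 12 alternatives. PDGFRA, the receptor of PDGFA and PDGFC, had 4 counts in all. PDGFC was at 78.6 ± 5.60 and 102 ± 10.4 CPM (SD, n = 3), without overlap, and its fold change was just under the threshold (log2 fold change 0.38, SE 0.079, edgeR adjusted p 0.000542). It was called higher with DESeq2, without control replicate 3 and without KO replicate 2. PDGFA was at 20.6 ± 1.28 and 17.5 ± 0.884 CPM (SD, n = 3), also without overlap, and did not pass (edgeR adjusted p 0.0532).

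PDGFRL, a secreted protein that resembles the receptor's outer part, fell 1.502-fold, from 4.25 ± 0.379 to 2.84 ± 0.266 CPM (SD, n = 3), a difference of -0.59 on the log2 scale (SE 0.15, edgeR adjusted p 0.00393). The span of MTUS1 overlaps that of PDGFRL on the opposite strand, with a mean of 1107 counts in control and 922 counts in KO libraries. Overlap of their exons was not checked and the strand setting is not stated, so whether they share reads is not known. KIT, the stem cell factor receptor, had 6 to 21 counts per library. Its values of 0.490, 0.778 and 0.825 CPM in control and 0.598, 0.238 and 0.255 CPM in KO libraries overlapped, and its call (log2 fold change -1.02, SE 0.38, edgeR adjusted p 0.0423) was lost in 6 of 11 alternatives, with an adjusted p of up to 0.235 in DESeq2. Its ligand KITLG, at 55.7 ± 5.22 and 46.8 ± 4.18 CPM (SD, n = 3), did not pass the fold change (log2 fold change -0.25, SE 0.084, edgeR adjusted p 0.0232), and missed the adjusted p without control replicate 2 or 3 or KO replicate 1 or 2.

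**Figure D4:**
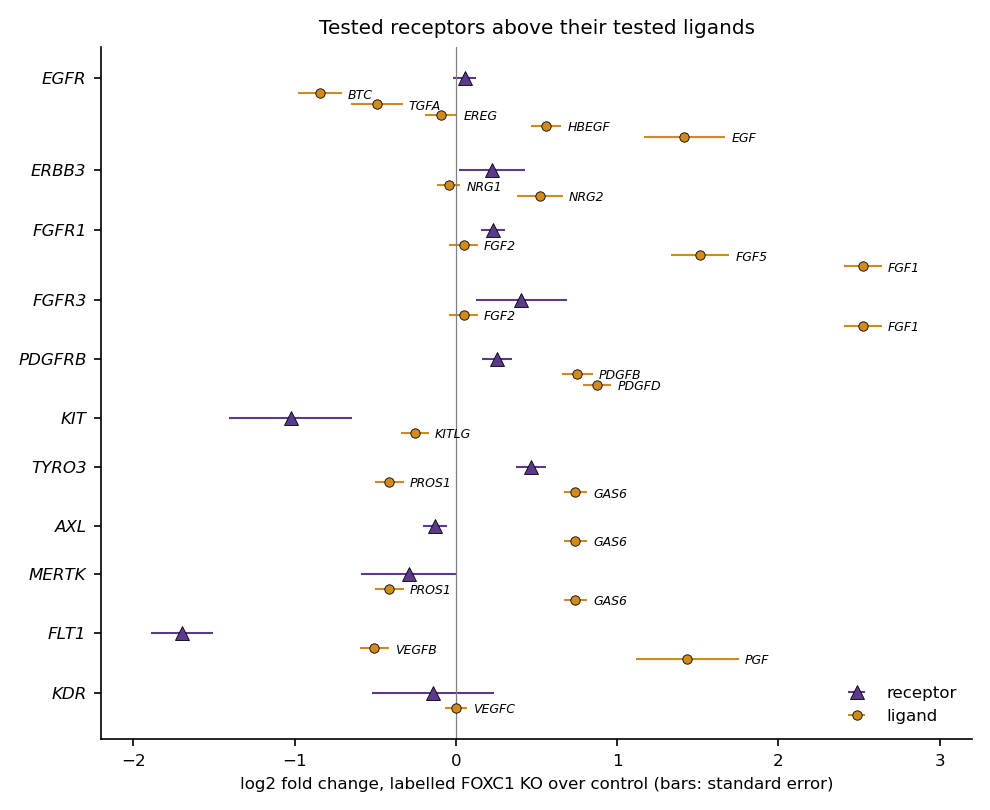
Each triangle is a tested receptor and the circles under it are its tested ligands in the set. Symbols are placed on the x axis at their log2 fold change (libraries labelled FOXC1 KO over control) with bars of 1 standard error. FLT1 at -1.70 lies above VEGFB at -0.51 and PGF at 1.44, and TYRO3 at 0.47 above PROS1 at -0.41 and GAS6 at 0.74.

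The TAM receptors TYRO3, AXL and MERTK bind GAS6, and TYRO3 and MERTK also bind protein S, the product of PROS1. The 2 ligands moved in opposite directions. GAS6 was at 122, 108 and 108 CPM in control and 194, 194 and 178 CPM in KO libraries, without overlap. It rose 1.67-fold (log2 fold change 0.74, SE 0.072, edgeR adjusted p 3.40e-09). PROS1, whose promoter window was printed above, was at 25.6, 28.6 and 29.9 CPM in control and 20.6, 19.7 and 22.9 CPM in KO libraries. It fell 1.33-fold (log2 fold change -0.41, SE 0.090, edgeR adjusted p 0.000819), and its fold change was under the threshold without control replicate 3 or KO replicate 2 (log2 fold change -0.36 in each).

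AXL, the most abundant receptor of the set, was at 723, 591 and 618 CPM in control and 607, 597 and 562 CPM in KO libraries, and was not called (log2 fold change -0.13, SE 0.076, edgeR adjusted p 0.209). TYRO3 was at 17.8, 14.7 and 15.1 CPM in control and 22.4, 22.3 and 20.9 CPM in KO libraries. It rose 1.38-fold (log2 fold change 0.47, SE 0.095, edgeR adjusted p 0.000375) and was called in all 12 alternatives. MERTK was near the count minimum, at 0.806 ± 0.121 and 0.653 ± 0.101 CPM (SD, n = 3). Per exon length, GAS6 made up 77.8% ± 2.47 (SD, n = 3) of GAS6 and PROS1 transcripts in control and 88.7% ± 1.3 in KO libraries.

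VEGF and TIE family genes are best known from blood vessels, where FLT1, KDR and FLT4 bind VEGFs and TEK binds angiopoietins. FLT1, which binds VEGFB and placental growth factor, had the largest fall of the set. It lies on chromosome 13 at 28874483 to 29069282 (minus strand, GRCh37). Its level was 3.70, 3.07 and 3.58 CPM in control and 1.09, 1.11 and 0.977 CPM in KO libraries. These rest on 75 to 91 counts per control library and 20 to 28 per KO library. The fall was 3.25-fold (log2 fold change -1.70, SE 0.19, edgeR adjusted p 5.45e-08) and lay between -1.78 and -1.65 under 12 alternatives. The endothelial marker ESAM was lower in the same libraries (1.80 to 0.742 CPM) and CDH5 higher (0.0131 to 0.932 CPM), and their part in the FLT1 value was not tested.

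Its ligand VEGFB was at 88.3, 72.3 and 73.9 CPM in control and 51.2, 62.6 and 51.1 CPM in KO libraries. It fell 1.42-fold (log2 fold change -0.51, SE 0.088, edgeR adjusted p 5.32e-05). PGF, the other FLT1 ligand in the set, went the other way. It was at 0.579, 0.205 and 0.668 CPM in control and 0.978, 1.59 and 1.32 CPM in KO libraries. These rest on 5 to 17 counts per control library and 18 to 40 per KO library, and PGF passed the filter through the KO libraries alone. It rose 2.71-fold (log2 fold change 1.44, SE 0.32, edgeR adjusted p 0.000926). VEGFC, a ligand of FLT4 and KDR, was at 144 ± 1.96 CPM in control and 144 ± 3.10 CPM in KO libraries (SD, n = 3), with a fold change whose sign changed in 4 alternatives. KDR had 7 to 18 counts per library and was not called.

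ANGPT1, the activating ligand of TEK, was at 17.9, 20.1 and 20.7 CPM in control and 8.69, 9.04 and 10.8 CPM in KO libraries, without overlap. It lies on chromosome 8 at 108261710 to 108510283 (minus strand, GRCh37). It fell 2.05-fold (log2 fold change -1.04, SE 0.10, edgeR adjusted p 6.11e-09). TEK itself had 2 counts in all libraries together, and ANGPT2, the context-dependent antagonist, 3 to 8 counts per library.

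MET, the receptor of hepatocyte growth factor, was at 330.5, 346 and 353 CPM in control and 310.5, 269 and 279.7 CPM in KO libraries. Every KO library lay below every control library, but the log2 fold change of -0.26 (SE 0.070, edgeR adjusted p 0.00548) did not reach the fold change threshold. MST1R, its relative, was not called (edgeR adjusted p 0.413). The discoidin domain receptors bind collagen. DDR1 was at 35.9, 28.5 and 29.9 CPM in control and 38.3, 39.7 and 37.3 CPM in KO libraries and did not reach the fold change (log2 fold change 0.29, SE 0.088, edgeR adjusted p 0.0124). It missed the adjusted p without control replicate 2 (edgeR adjusted p 0.0939) or 3 (edgeR adjusted p 0.0678), or without KO replicate 2 (edgeR adjusted p 0.0509).

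DDR2 was at 0.802, 0.655 and 0.904 CPM in control and 0.978, 1.94 and 1.57 CPM in KO libraries, a rise of 1.94-fold (log2 fold change 0.96, SE 0.27, edgeR adjusted p 0.00654). This call did not hold with DESeq2 (adjusted p 0.0656) or without KO replicate 2 (edgeR adjusted p 0.0829). Of the collagen genes among the fibroblast markers, a class of ligand for this receptor, COL3A1 (-1.18) and COL1A2 (-1.34) were lower and COL1A1 (2.21) higher on the log2 scale. RET had 3 to 9 counts per library. BDNF, a neurotrophin, was at 102 ± 7.55 and 97.1 ± 4.10 CPM (SD, n = 3) and was not called, while its receptor NTRK2, outside the 59 genes, rose from 6.94 ± 0.359 to 9.68 ± 0.648 CPM (log2 fold change 0.48, SE 0.11, edgeR adjusted p 0.00159).

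Receptors and ligands were then read side by side over 50 known pairs within the set. Receptor and ligand were both called in 4 pairs, all of which involve FLT1 or TYRO3. In 2 of these (FLT1 with VEGFB, TYRO3 with GAS6) they moved in the same direction and in 2 (FLT1 with PGF, TYRO3 with PROS1) in opposite directions. PGF passed the filter on low counts through the KO libraries alone, which favoured its call as higher. In 13 pairs a called ligand faced a tested receptor that was not called, as FGF1 and FGFR1, PDGFB and PDGFRB, or GAS6 and AXL. In 7 pairs the receptor of a called ligand was not tested. Pairs that share a gene are not independent.

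Genes downstream of the receptors were described from pathway lists. Of 22 adapters and RAS-MAPK core genes, all tested, KSR1, a scaffold of this cascade, was the 1 called (4.55%, beside 16.0% of all tested genes). It fell from 3.46 ± 0.595 to 1.70 ± 0.116 CPM (SD, n = 3), a difference of -1.02 on the log2 scale (SE 0.18, edgeR adjusted p 6.86e-05). The median of this list was 0.04. Of 15 PI3K-AKT genes 14 were tested and 2 were higher (14.3%), a share near the 16.0% of all tested genes. PIK3CD, a catalytic subunit best known from leukocytes, rose from 15.8 ± 2.46 to 36.6 ± 3.36 CPM (log2 fold change 1.21, SE 0.10, edgeR adjusted p 1.19e-10), and PIK3R3, a regulatory subunit, by 0.45 on the log2 scale (SE 0.073, edgeR adjusted p 2.02e-05). The median was -0.03.

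Of 20 feedback inhibitors of RTK signalling, 5 were called higher and 3 lower (40.0%, beside 16.0% of all tested genes). LRIG1, which promotes degradation of ERBB receptors, rose from 11.2 ± 0.221 to 29.8 ± 2.29 CPM (SD, n = 3), a difference of 1.41 on the log2 scale (SE 0.093, edgeR adjusted p 9.73e-13). ERRFI1, an inhibitor of the EGFR kinase, rose from 44.03 ± 3.197 to 79.95 ± 8.14 CPM (log2 fold change 0.86, SE 0.083, edgeR adjusted p 2.73e-09). IL17RD (0.47), SPRY4 (0.43) and DUSP5 (0.49) were the other higher members, and LRIG3 (-0.56), SPRY1 (-0.55) and SOCS3 (-0.39) the lower ones. SPRY4 without control replicate 2 (0.36), and SOCS3 without control replicate 1 or 3 or KO replicate 2 (to -0.36), were under the fold change threshold. The median of the list was 0.15, and the list was not tested as a set.

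Of 22 co-receptors and ligand-shedding genes 19 were tested, with 2 higher and 4 lower (31.6%, beside 16.0% of all tested genes). SDC1, a heparan sulphate proteoglycan that holds heparin-binding growth factors, rose from 119 ± 9.03 to 188 ± 12.0 CPM (SD, n = 3), a difference of 0.66 on the log2 scale (SE 0.074, edgeR adjusted p 4.21e-08). GPC4 (-0.98), SDC2 (-0.52) and GPC1 (-0.50), proteoglycans of the same kind, fell (GPC1 was under the fold threshold without control replicate 1, at -0.35), as did the metalloprotease gene ADAM12 (-1.03). RHBDF2, a partner of the sheddase ADAM17, was higher (0.45), a change under the fold threshold without control replicate 3 or KO replicate 2. Of 35 other RTKs 24 were tested, with 7 higher and 2 lower (37.5%, beside the same 16.0%). CSF1R, the colony-stimulating factor receptor, rose from 1.13 ± 0.159 to 5.98 ± 0.380 CPM (log2 fold change 2.40, SE 0.17, edgeR adjusted p 4.01e-12). EPHB1 (2.24), ROS1 (1.65), EPHB2 (0.93), PTK7 (0.59) and EPHB4 (0.56) were higher with NTRK2, and EPHA7 (-1.25) and LMTK3 (-1.001) lower at under 1 CPM in both groups. The filter minimum was 0.419 CPM. EPHB1 passed it through the KO libraries alone (0.369 CPM in control replicate 2) and LMTK3 through the control libraries alone (0.163 CPM in KO replicate 1). For EPHB1 and LMTK3 the filter itself thus favoured a difference. LMTK3 was not called in 6 of 11 alternatives (DESeq2, no filter, without control replicate 2 or 3 or KO replicate 1 or 2), nor EPHA7 in 3 of 10 (DESeq2, without KO replicate 1 or 2). CSF1R and PIK3CD are also known from leukocytes, and the immune markers, summed at 3.85 to 4.37 CPM in control and 5.55 to 6.63 CPM in KO libraries, moved with them. Their part in these values was not tested.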

How the data were processed

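The authors deposited 1 table of raw counts per gene for 6 libraries. Per the study's methods, paired 75-base reads had been aligned to hg19 with STAR and assigned to GENCODE version 19 genes with featureCounts of Subread. Settings for strand and multi-mapping reads, and tool versions, were not given in the sources used here. Each column matched 1 sample title, and 0 columns belonged to other samples. Identifiers were matched to symbols, GRCh37 coordinates and exon lengths of a later GENCODE annotation (55538 of 57820, 96.05%), so lengths may differ from the authors' gene models.

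The 59 genes, the lists and the pairs were chosen with earlier results of these data known. Counts were filtered with filterByExpr, scaled with TMM and fitted over the whole table with the robust quasi-likelihood test of edgeR 4.0.16 (R 4.3.3), with group as the only term. The study's cutoffs for the adjusted p (0.05) and fold change (1.3) were kept. CPM used TMM-scaled library sizes. Standard errors were derived from the F statistic. With 3 libraries against 3, an exact permutation test cannot give a two-sided p below 0.1, and this was its value for genes whose groups did not overlap. The study used DESeq2, run here as an alternative (version 1.42.0), with RLE factors, library size alone, no filter, a mean of at least 50 counts, the replicate number as a block, each library left out in turn, and other fold thresholds. The named genes were those called or under the adjusted p, their known partners, the highest levels and called genes of the lists, at most 5 by p. Other list genes, named in brackets, were added after their values were seen. The procedure was tested on simulated counts.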

Additional observations from a re-analysis of the deposited data

How the results depend on the processing

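Of 22 called genes of the set, 18 to 22 were also called under each of 12 alternatives, and 0 changed direction. Members called ranged from 6 to 8 lower and from 13 to 15 higher when single libraries were left out, receptors from 1 to 2 lower and from 1 to 3 higher, ligands from 4 to 6 and from 8 to 10, and the pathway lists from 7 to 10 and from 16 to 19. At a fold change over 2, members fell to 3 lower and 5 higher, receptors to 0 higher, ligands to 1 and 4, and the pathway lists to 4 and 5, by construction. With no fold threshold 5 receptors were higher. Receptors were 1 lower and 1 higher with DESeq2 and with a mean of at least 50 counts, and 1 lower with no filter. KIT and DDR2 account for these changes, and under the mean filter they were not tested. Signs changed only among genes that were not called. With 1 library left out, log2 fold changes ranged from -0.0084 to 0.088 for EGFR, from -0.21 to 0.0012 for EREG, from -0.082 to 0.154 for FGF2, from -0.066 to 0.0995 for FGFRL1, from -0.418 to 0.18 for KDR and from -0.0224 to 0.010 for VEGFC. FGFRL1 was -0.0046 with a mean of at least 50 counts and VEGFC 0.0025 with DESeq2. These signs lie within 1 SE of zero in the full fit, and the cause was not tested. Libraries with the same replicate number were not paired, as their deviations correlated at -0.027, -0.072 and 0.050. With the replicate block 8 members were lower and 14 higher, the same 22 genes. KIT, KDR and FGF11 rest on at most 21 counts per library, so their values are imprecise.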

Other observations

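Among the 14 genes with too few counts for a test, HGF, the ligand of MET, had 1 count in the control libraries together and 3, 4 and 5 counts in the KO libraries. FGF18, a ligand of FGFR3, had 5, 4 and 4 counts in control and 1 count in each KO library. The groups did not overlap for either gene, and HGF was called higher when no filter on low counts was applied. No fold change is given for either at these counts. FAM227B on the opposite strand of FGF7, and MCPH1 on that of ANGPT2, carried more counts than the growth factor gene itself. Their means were 30.2 and 379 counts per library against 1.17 and 5.17. These overlaps are of whole gene spans and overlap of exons was not checked, so whether reads are shared is not known. The same limit holds for NRG4 and ERBB2. FBXO22 overlaps NRG4 on the opposite strand (828 against 82.3 counts) and MIEN1 overlaps ERBB2 (1149 against 1083).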
